A study of Arabidopsis thaliana with 4 samples.

Results

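The SQUAMOSA promoter binding protein-like (SPL) genes encode plant transcription factors that share the SBP domain, a zinc-binding DNA-binding domain. The 10 genes described here (SPL2, SPL3, SPL4, SPL5, SPL6, SPL8, SPL9, SPL10, SPL11 and SPL15) were chosen by locus identifier, and all 10 were found among the 27322 gene models of the table. Transcripts were measured by mRNA sequencing in inflorescence shoot apices of Arabidopsis thaliana, in mp319 clv3-7 plants (mp clv3), mutant for both MP and CLV3, and in Col-0, the wild type (WT). Plants of both genotypes were 6 weeks old and had grown at 22°C with 16 h of light, and older flowers were taken off at harvest. MP is an auxin response factor needed for organ initiation, and CLV3 is the peptide signal that limits the stem cells of the shoot meristem. No group with only 1 of the mutations is described in the labels, so the effects of MP and CLV3 cannot be told apart, and how many plants went into a sample is not given.

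Most SPL genes are held down by the microRNAs miR156 and miR157, which are abundant in young plants and decline with age. As they decline, SPL proteins accumulate and promote adult leaf traits, flowering and floral meristem identity. SPL proteins also switch on MIR172 genes, whose microRNA in turn represses a group of AP2-type flowering repressors. SPL8 lies outside miR156 control and acts in pollen sac development.

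The pairing between microRNA and transcript is what sets most of these genes apart from SPL8, so the sequences are shown first, read from the RefSeq genome and annotation (TAIR10.1). The mature microRNAs are written 5′ to 3′ with the seed, bases 2 to 8, in capitals. All annotated miR156 forms other than the 3p arms, and miR157d, share the seed of miR156a-5p, while miR157a-5p, miR157b-5p and miR157c-5p begin with 1 extra base and are identical to one another.
miR156a-5p: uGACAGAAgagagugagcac
miR157a-5p: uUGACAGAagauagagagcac

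A search of all annotated mRNAs for the 20 bases complementary to miR156a-5p, without gaps, found a site in 9 of the 10 genes and none in SPL8 with up to 4 mismatches. Below, the transcript is written 5′ to 3′ and capitals mark bases that do not match the exact complement of miR156a-5p, G:U pairs among them.
SPL9: gugcucUcucucuucuguca
SPL3: UugcuUacucucuucuguca
SPL4: CugcucUcucucuucuguca
SPL5: CCgcucUcucucuucuguca

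The SPL9 site lies at chr2:17589066-17589085 on the plus strand, in the coding part of exon 3, and its letters are the same in SPL2, SPL6, SPL10, SPL11 and SPL15, each with 1 mismatch and each in coding sequence of the last exon. The sites of SPL3 (chr2:14305878-14305897, plus strand), SPL4 (chr1:19807090-19807109, plus strand) and SPL5 (chr3:5140598-5140617, minus strand) lie in the 3′ UTR instead, with 2, 2 and 3 mismatches. Of the 2 in SPL3, 1 is a G:U pair. Among 31464 genes with an annotated mRNA, 10 (0.0318%) held a site with up to 2 mismatches, and all 10 were SPL genes: the members other than SPL5 and SPL8, and the near-identical pair SPL13A and SPL13B. With up to 3 mismatches, 13 genes (0.0413%) held one, of which 11 were SPL genes. At the limit of 4 mismatches the number was 47 genes (0.149%), of which 11 were again SPL genes. The same search with miR157a-5p found no site in SPL3 or SPL8, and sites with 3 mismatches in SPL4 and 4 in SPL5. The 6 members with a coding site had 1 or 2 mismatches to miR157a-5p. A match of letters is a description of the transcript and not a measurement of cleavage.

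For each genotype the table gives a single read number and a single RPKM value per gene (reads scaled to model length and to depth), although the labels list 2 biological replicates of each. No member therefore has a replicate check. Summed over all models there were 103347441 reads for mp clv3 and 101878433 for WT. Each 95% interval, given in parentheses, covers counting error only, on read pairs. A gene is described as called where the FDR in the authors' deposited table was under 0.05. Differences are given for mp clv3 over WT.

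Of the 10 SPL genes, 9 were lower and 1 was higher in mp clv3 by the FDR of the authors' deposited table. The same criterion called 43.5% of all models lower and 31.3% higher, so a call by itself separates few genes. SPL3, SPL4, SPL5, SPL8 and SPL9 were at least 2-fold lower, 5 of 10, beside 21.3% of all models. None was at least 2-fold higher, beside 9.85% of all models. For the same 5 genes the whole counting interval lay beyond 2-fold, which held for 14.4% of all models downward and 7.37% upward. All 10 members reached 1 RPKM in at least 1 genotype. Among such models, 18.6% were called and at least 2-fold lower, and 11% were called and at least 2-fold higher. The median log2 ratio of the 10 was -1.08, against -0.15 over the 23060 models above the floor of 6 reads. Summed over the 10 genes, the level was 355 RPKM in mp clv3, against 901 RPKM in WT.

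**Figure D1:**
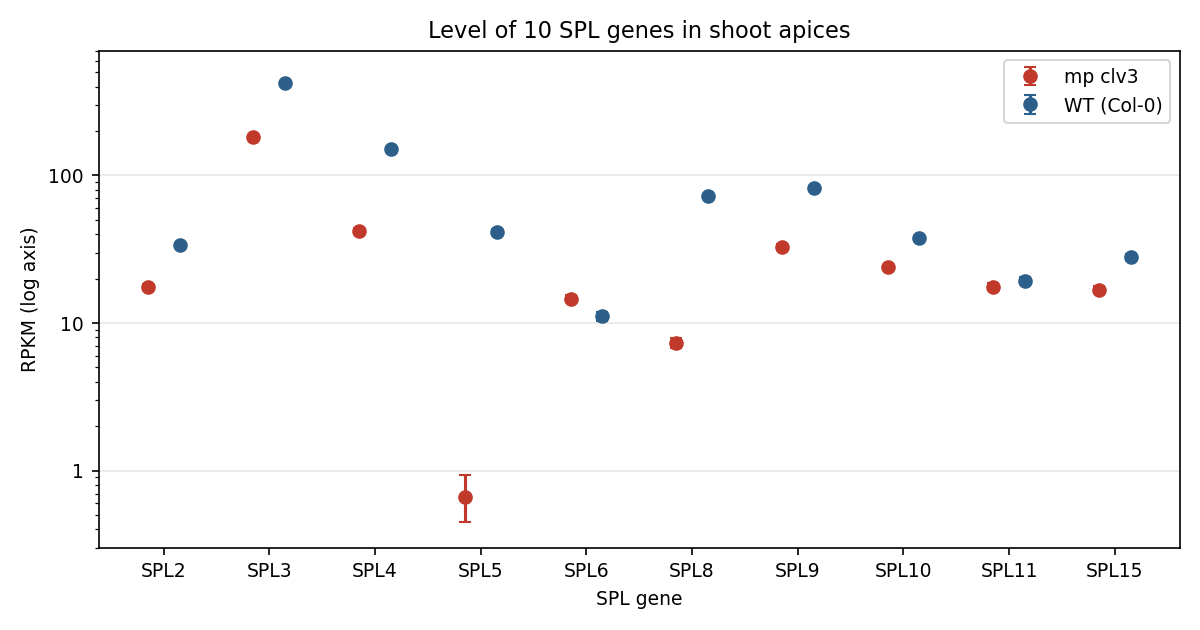
Level of each SPL gene in RPKM (log axis) in mp clv3 and WT, 1 value per genotype, with bars for the 95% counting interval. SPL5, at 0.658 RPKM in mp clv3 against 41.4 RPKM in WT, has the widest gap, and SPL6 is the gene whose mp clv3 point lies above its WT point.

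The 3 small SPL genes with a 3′ UTR site differed in size of effect although all were lower. SPL3, SPL4 and SPL5 encode short proteins, of 131, 171 to 174 and 181 residues in the annotation, that are little more than the SBP domain and promote flowering and floral meristem identity. SPL3 (AT2G33810; chromosome 2, 14305001 to 14306072) was counted 18456 times, at 182 RPKM, in mp clv3, against 42352 times, at 424 RPKM, in WT, 2.33-fold lower (2.27 to 2.39). It was the most abundant member in both genotypes, with 51.2% of the summed RPKM of the 10 in mp clv3 and 47.0% in WT. SPL3 was a well-expressed gene in both genotypes, above 97.8% of all models in mp clv3 and above 99.1% in WT.

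SPL4 (AT1G53160; chromosome 1, 19806263 to 19807705) was at 41.9 RPKM in mp clv3, against 151 RPKM in WT, 3.60-fold lower (3.41 to 3.80). It ranked second in both genotypes. SPL5 (AT3G15270; chromosome 3, 5140365 to 5142323) had 61 reads and 0.658 RPKM (0.447 to 0.934) in mp clv3, against 3782 reads and 41.4 RPKM (39.5 to 43.3) in WT. The SPL5 ratio was 62.9-fold lower (43.4 to 91.3), or -5.97 on the log2 scale. With 0 reads set to the floor of 6 reads, 1.41% of models above the floor had a lower ratio, a share that may be too small.

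The balance among the 3 genes differed between the genotypes. Per length, SPL4 exceeded SPL5 by 63.7-fold (44 to 92.5) in mp clv3 and by 3.65-fold (3.46 to 3.84) in WT. SPL3 exceeded SPL4 by 4.34-fold (4.13 to 4.57) in mp clv3 and by 2.81-fold (2.73 to 2.89) in WT. These intervals cover counting error only, and how many other gene pairs differ as much was not counted.

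The annotated span of SPL5 lies wholly inside that of AT3G15260 on the opposite strand, over 1959 bases, and that gene had 3482 reads in mp clv3, against 2319 in WT. Of the 100-base windows of the SPL5 mRNA, 21.3% also occur, on the other strand, in mRNAs of AT3G15260. The sources used here do not say whether reads were assigned by strand, so some of the 61 SPL5 reads may belong to the neighbour. SPL3 also overlaps an opposite-strand noncoding gene, AT2G33815, over 1046 bases. The hairpin gene MIR156i lies opposite SPL4 over 197 bases, and MIR156j lies opposite SPL9 over 68 bases. Mature miR156i and miR156j are annotated at the very bases of the SPL4 and SPL9 sites, on the other strand. Each is therefore the exact complement of that site. None of these noncoding genes was analysed here.

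SPL9 and SPL15, which slow the pace of leaf initiation and promote the change to flowering, were both lower. SPL9 (AT2G42200; chromosome 2, 17587169 to 17589671) was at 33.0 RPKM in mp clv3, against 82.6 RPKM in WT, 2.50-fold lower (2.39 to 2.62). SPL15 (AT3G57920; chromosome 3, 21444243 to 21446035) was at 16.8 RPKM in mp clv3, against 28.1 RPKM in WT, 1.67-fold lower (1.55 to 1.80). Per length, SPL9 exceeded SPL15 by 1.96-fold (1.83 to 2.1) in mp clv3 and by 2.94-fold (2.79 to 3.09) in WT. SPL15 is the member with the largest share of 100-base windows in mRNAs of another gene, a search that left out noncoding genes. It lies inside the opposite-strand gene AT3G57910 over 1793 bases, and 86.1% of its windows occur in mRNAs of that gene. AT3G57910 had 1054 reads in mp clv3, against 1037 in WT. As for SPL5, whether reads were assigned by strand is not stated.

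SPL2, SPL10 and SPL11, related genes that act in lateral organ shape and in fertility, showed smaller differences. SPL2 (AT5G43270; chromosome 5, 17360287 to 17363880) was at 17.6 RPKM in mp clv3, against 33.9 RPKM in WT, 1.93-fold lower (1.81 to 2.05). The interval of SPL2 takes in a 2-fold difference, and the gene was not counted among the 5. SPL10 (AT1G27370; chromosome 1, 9505112 to 9508542) was at 24 RPKM in mp clv3, against 37.6 RPKM in WT, 1.57-fold lower (1.5 to 1.64).

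SPL11 (AT1G27360; chromosome 1, 9500892 to 9504023) was at 17.6 RPKM in mp clv3, against 19.4 RPKM in WT. Its log2 ratio of -0.14 (-0.24 to -0.03) was called lower in the authors' deposited table, with an FDR of 4.28e-04. With TMM scaling it was -0.04 (-0.15 to 0.06), an interval that holds 0. SPL10 and SPL11 are neighbours that point toward each other on chromosome 1, 1088 bases apart, and share no 100-base window. Per length, SPL10 exceeded SPL11 by 1.36-fold (1.27 to 1.45) in mp clv3 and by 1.94-fold (1.83 to 2.05) in WT.

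SPL6, known for a role in immune receptor signalling, was the only one of the 10 that was higher. SPL6 (AT1G69170; chromosome 1, 26005068 to 26007368) was at 14.6 RPKM in mp clv3, against 11.1 RPKM in WT, 1.32-fold higher (1.22 to 1.43). It shares 19 bases at its edge with the carpel gene CRC on the opposite strand, which had 23 reads in mp clv3, against 5377 in WT. SPL6 was the lowest of the 10 in WT, whereas SPL8 and SPL5 ranked below it in mp clv3.

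SPL8, the member without a miR156 site, had the second largest difference. SPL8 (AT1G02065; chromosome 1, 365165 to 367443) was at 7.34 RPKM (6.77 to 7.94) in mp clv3 and 72.9 RPKM (71.0 to 74.7) in WT, 9.93-fold lower (9.14 to 10.8). It ranked 9 of 10 in mp clv3 and 4 of 10 in WT. Per length, SPL8 over SPL6 was 0.503 (0.457 to 0.554) in mp clv3 and 6.59 (6.17 to 7.05) in WT. An opposite-strand gene, AT1G02067, overlaps SPL8 over 222 bases and was not analysed here.

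Listed markers of anther tapetum and floral organs were lower in mp clv3. All 8 anther tapetum genes listed, among them DYT1, AMS and MS2, were at least 2-fold lower, beside 21.3% of all models. Together they made up 5.81e-05% of the mp clv3 reads and 0.0369% of the WT reads, and DYT1, MS188 and MS2 had 0 reads in mp clv3. Of 6 floral organ genes listed, AG was not analysed here. The other 5, AP3, PI, SEP1, SEP2 and SEP3, were all at least 2-fold lower. Those 5 made up 0.000211% of the mp clv3 reads and 0.0488% of the WT reads. Of the meristem genes, STM was 3.16-fold higher (3.05 to 3.26), WUS 9.29-fold higher (7.84 to 11.1) and CLV1 2.54-fold higher (2.43 to 2.65), while KNAT1 was 3.97-fold lower (3.71 to 4.25). All 5 green tissue genes were called lower by the FDR, beside 43.5% of all models. Of the 5, only RBCS1A was at least 2-fold lower, at 3.21-fold (3.18 to 3.24). The other 4 lay between 1.3-fold and 1.94-fold lower. The 5 made up 0.402% of the mp clv3 reads and 0.810% of the WT reads. The part of tissue make-up in the SPL differences was not tested, and in whole apices fewer cells of a type and less RNA per cell cannot be told apart.

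By RPKM the order of the levels in WT, where no neighbouring members had overlapping intervals, was SPL3, SPL4, SPL9, SPL8, SPL5, SPL10, SPL2, SPL15, SPL11 and SPL6. In mp clv3 the order was SPL3, SPL4, SPL9, SPL10, SPL11, SPL2, SPL15, SPL6, SPL8 and SPL5. There SPL11, SPL2 and SPL15, at 17.6, 17.6 and 16.8 RPKM, had overlapping intervals from one neighbour to the next. The intervals leave out model length, so both orders, and ratios between different genes, also rest on the lengths used. For SPL5 that length was 897 bases, whereas its RefSeq mRNA has 1872.

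**Figure D2:**
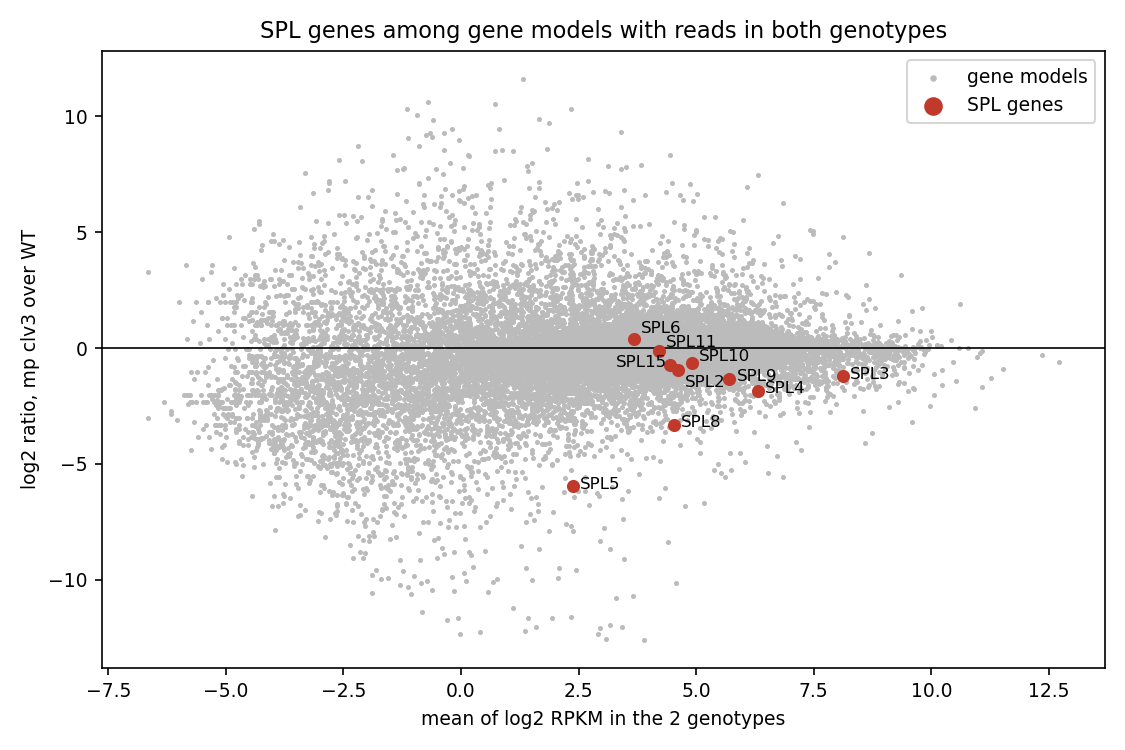
Each gray point is a gene model above the floor with reads in both genotypes, placed by its mean log2 RPKM and its log2 ratio of mp clv3 over WT. Of the SPL genes (red), SPL5 at -5.97 and SPL8 at -3.31 lie farthest below 0.

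The family holds 7 further SPL genes, none of which was at least 2-fold lower, beside 21.3% of all models. SPL13A and SPL13B, which carry the same coding site letters as SPL9 with 1 mismatch, were higher. SPL13A was at 44.4 RPKM in mp clv3, against 19.0 RPKM in WT, 2.34-fold higher (2.21 to 2.48). SPL13B was at 51.3 RPKM in mp clv3, against 20.8 RPKM in WT, 2.47-fold higher (2.33 to 2.62). All 1718 of the 100-base windows of the SPL13B mRNA occur in SPL13A as well, so how reads were divided between the 2 copies cannot be read from the counts. The median log2 ratio of the 7 genes was 0.32.

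The 5 large SPL genes without a miR156 site stayed within 2-fold. The log2 ratio was -0.21 (-0.25 to -0.18) for SPL1 and -0.20 (-0.24 to -0.16) for SPL14, and for SPL7, a regulator of the copper deficiency response, it was -0.46 (-0.54 to -0.38). SPL12 and AT1G76580 were at 0.32 (0.26 to 0.37) and 0.42 (0.37 to 0.48). SPL8 was the only 1 of the 6 SPL genes without a site that was at least 2-fold different. Among all models, 21.3% were at least 2-fold lower and 9.85% at least 2-fold higher.

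Grouped by site, the 3 genes with a 3′ UTR site ran from -5.97 to -1.22 on the log2 scale. The 8 with a coding site ran from -1.32 to 1.30, with 1 at least 2-fold lower, 2 at least 2-fold higher and 5 neither. The 6 without a site ran from -3.31 to 0.42. In summed RPKM, the 3′ UTR group was at 225 in mp clv3, against 616 in WT. The coding group was at 219 in mp clv3, against 252 in WT, and the group without a site at 195 in mp clv3, against 268 in WT. The coding group holds SPL13A and SPL13B, whose reads may have been counted for both copies. Its 6 other genes were at 124 in mp clv3, against 213 in WT. Of these 6, 1 was at least 2-fold lower and 0 were at least 2-fold higher. The groups hold few genes, beside shares of all models of 21.3% at least 2-fold lower and 9.85% at least 2-fold higher. No test was made between the groups. The precursors of miR156, miR157 and miR172 were not analysed here.

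**Figure D3:**
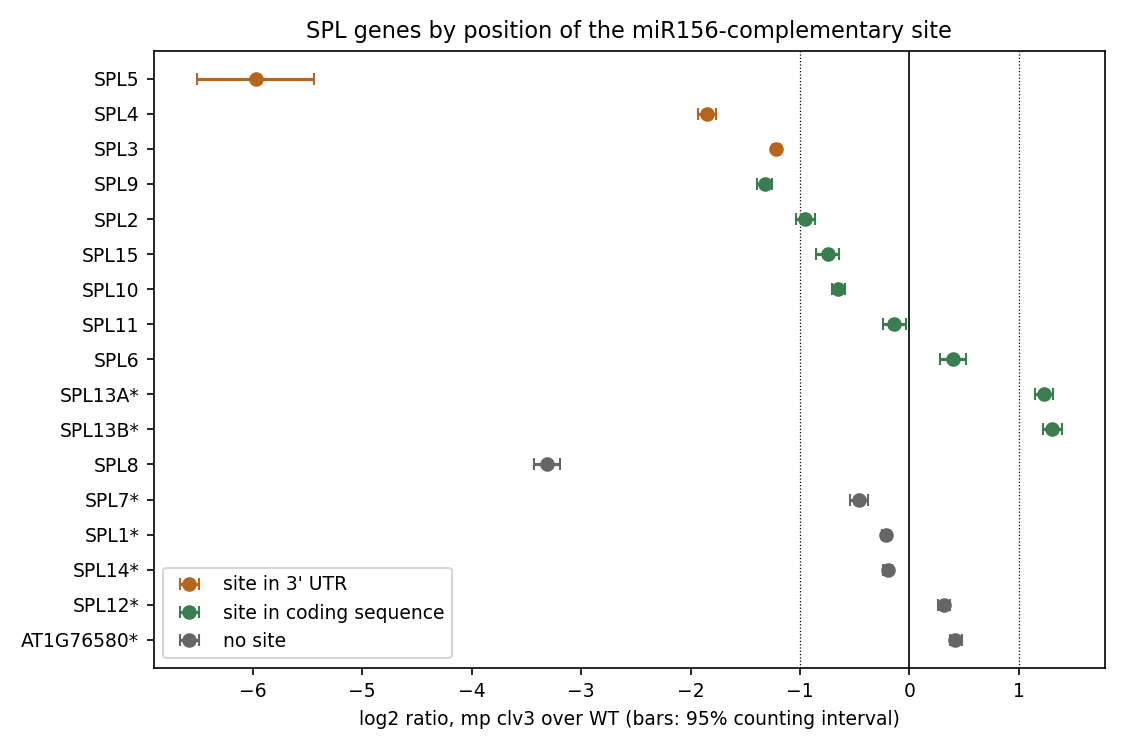
Log2 ratio of mp clv3 over WT for all 17 SPL genes, grouped by where the miR156-complementary site lies, with 95% counting intervals. Dotted lines mark a 2-fold difference and an asterisk marks the 7 genes outside the set of 10. The 3 genes with a 3′ UTR site all lie left of the lower line, while genes with a coding site lie on both sides of 0.

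Of 7 genes reported to be controlled by SPL proteins, 1 was at least 2-fold higher, 3 were at least 2-fold lower and 3 were neither. Over all models, 9.85% were at least 2-fold higher and 21.3% at least 2-fold lower. FUL, a MADS-box gene of inflorescence and fruit, was at 152 RPKM in mp clv3, against 59.4 RPKM in WT, 2.56-fold higher (2.46 to 2.66). SOC1, a MADS-box integrator of flowering signals, was 1.65-fold higher (1.59 to 1.71), and LFY, the floral meristem identity factor, was 1.62-fold higher (1.5 to 1.75). AGL42, a relative of SOC1, had 3880 reads in mp clv3, against 3881 in WT, and was not called.

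AP1, the floral meristem and sepal gene, went the other way. It had 20 reads and 0.158 RPKM in mp clv3, against 14281 reads and 114 RPKM in WT, 724-fold lower (394 to 1510). The trichome repressor genes TCL1 and TRY, which SPL9 is known to activate on the inflorescence, were 4.12-fold (3.64 to 4.67) and 40.0-fold (20.8 to 88.2) lower. TRY had 18 reads in mp clv3, against 710 in WT. The median log2 ratio of these 7 genes was -0.02.

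The AP2-type repressors that miR172 targets were split. AP2 itself, also a floral organ identity gene, was at 3.14 RPKM in mp clv3, against 24.7 RPKM in WT, 7.88-fold lower (6.92 to 8.96). TOE2 was 2.30-fold lower (2.06 to 2.57). TOE1 was at 13.1 RPKM in mp clv3, against 2.63 RPKM in WT, 4.99-fold higher (4.36 to 5.71), and TOE3 was 1.12-fold higher (1.02 to 1.22). SMZ and SNZ were low in both genotypes, SMZ at 17 reads in mp clv3, against 88 in WT, and SNZ at 16 reads in mp clv3, against 2 in WT. The SNZ ratio of 7.89 has an interval of 1.06 to 350.0. Of the 6, 2 passed the FDR and the 2-fold criterion upward and 3 downward, beside 9.85% and 21.3% of all models. Their median log2 ratio was -0.52.

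Regulators that act on SPL genes or proteins also differed in both directions. FT, the mobile flowering signal that acts with the bZIP factor FD to raise SPL3, SPL4 and SPL5, had 2 reads in mp clv3, against 573 in WT, a ratio of 291-fold lower (51.8 to 11500). Its relative TSF had 0 reads in mp clv3, against 16 in WT, at least 2.71-fold lower against a floor of 6 reads in mp clv3. FD was at 28.7 RPKM in mp clv3, against 11.4 RPKM in WT, 2.52-fold higher (2.32 to 2.74), and its paralog FDP was 1.41-fold lower (1.23 to 1.61).

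SVP, a MADS-box flowering repressor, was at 66.2 RPKM in mp clv3, against 11.8 RPKM in WT. FLC, another MADS-box repressor, had 14 reads in mp clv3, against 158 in WT, 11.4-fold lower (5.30 to 29.4). TFL1, which keeps the inflorescence meristem indeterminate, was 2.82-fold higher (2.45 to 3.24). The DELLA genes GAI and RGA, whose proteins bind SPL9, were within 1.12-fold of WT, GAI at a log2 ratio of 0.15 (0.08 to 0.22) and RGA at -0.16 (-0.21 to -0.11). Of these 9 regulators, 3 were at least 2-fold higher, 3 lower and 3 neither, beside 9.85% of all models higher and 21.3% lower. Their median log2 ratio was -0.16, with TSF taken at the floor.

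**Figure D4:**
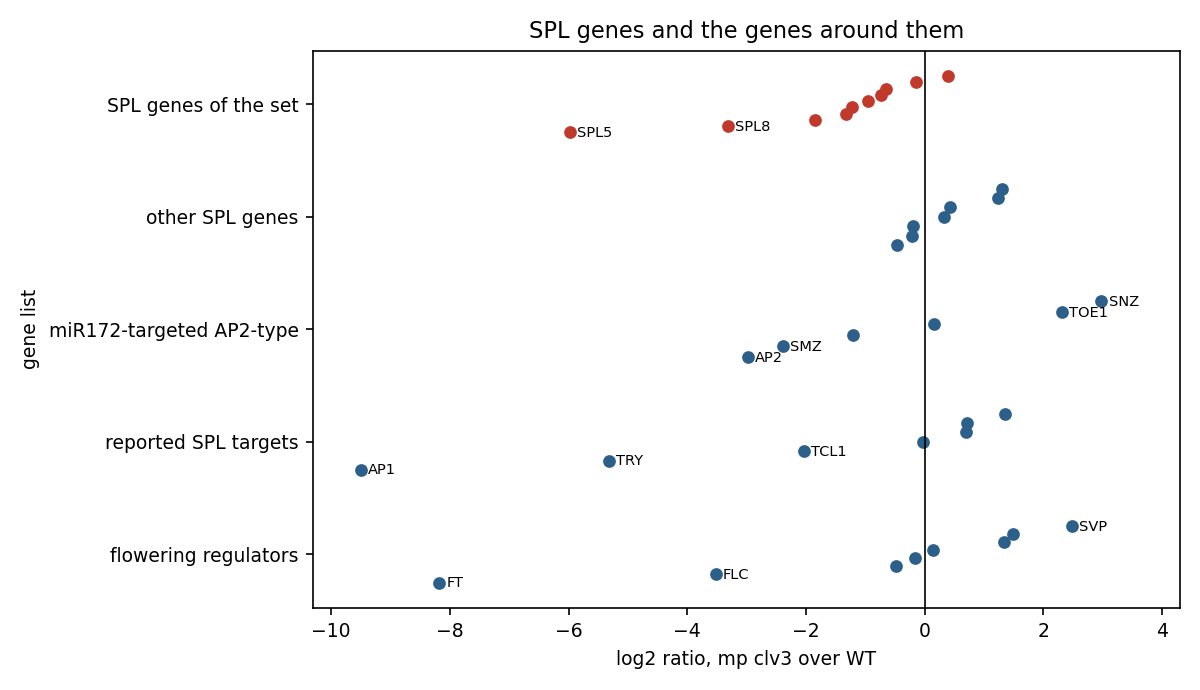
Log2 ratio of mp clv3 over WT for the 10 SPL genes (red) and for 4 lists of related genes (blue), 1 point per gene, with genes beyond a log2 ratio of 2 in either direction named. TSF, with 0 reads in mp clv3, is not drawn. AP1 at -9.50 and FT at -8.18 lie farthest left, and each of the 4 blue rows has points on both sides of 0.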

How the data were processed

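Poly(A) RNA of shoot apices was sequenced in 4 samples, 2 per genotype. CASAVA 1.7, BWA and the TAIR10 build appear in the submitters' processing notes without their roles. The table deposited by the authors holds estimated counts (read numbers, with 0 written as 0.5 and set back to 0 here), RPKM, a log2 ratio and an FDR, an adjusted p-value from a test not stated. How the columns relate to the replicates is not stated, so they were used as the authors' single values. Of 27323 rows, 1 with shifted cells was left out. More models had 2 reads than 1 or 3 (717 against 99 and 88 in mp clv3), so read pairs were used (reads divided by 2, rounded up). The pairs entered exact Clopper-Pearson ratio intervals and exact Poisson level intervals (scipy 1.17.1). Only the ratio intervals were checked on simulated data, which held counting error alone and left out models with few WT reads. The floor is 3 read pairs, or 6 reads; 4262 models at or under it in both genotypes were left out of medians.

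Calls rest on the FDR in the authors' deposited table; edgeR 4.0.16 gave TMM factors only. Each interval covers counting error alone, since each genotype has a single value. No molecular identifiers are described, so repeated reads of a molecule could not be set apart, and the intervals may be too narrow. The members and 6 lists (46 genes, 29 in the table) were chosen with earlier results of these data known. All list members were eligible to be named. Sites, coordinates and overlaps come from RefSeq TAIR10.1, whose mRNAs can be longer than the table's models (SPL5: 1872 bases in RefSeq, 897 in the table). AT1G76580 carries no SPL name in that annotation. Scaling, pseudocount, an RPKM minimum, organelle totals and a stricter interval rule were varied.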

Additional observations from a re-analysis of the deposited data

How the results depend on the processing

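The 10 SPL genes kept the sign of their log2 ratio under all 5 alternatives tried for them (TMM, median-of-ratios, totals without organelle genomes, and pseudocounts of 1 and 5 RPKM). In 19 of these 50 values the ratio moved outside the counting interval. A pseudocount of 5 RPKM took SPL5 to -3.04 and SPL8 to -2.66, since it shrinks ratios of low levels. The number of members past 2-fold, 5 downward and 0 upward, was the same under both scalings, both pseudocounts, an RPKM minimum of 1 and the rule that the whole interval lie beyond 2-fold, and their median ranged from -1.08 to -0.99. TMM and median-of-ratios scaling shifted all log2 ratios by 0.09 and 0.10. Under them the median of the reported SPL targets, -0.02 by totals, was 0.07 and 0.08, so the sign of that median rests on the scaling. The median of the AP2-type repressors, -0.52, was -0.42 with median-of-ratios scaling and -0.26 and -0.07 with pseudocounts of 1 and 5 RPKM. The median of the flowering regulators, -0.16, was 0.00 with an RPKM minimum of 1, which leaves out TSF. No paired analysis was possible because the columns carry no replicate number, and leaving out replicates and DESeq2 were not run for that reason. Medians were held to be the same within 0.1.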
